A study of Mus musculus with 6 samples.

Results

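The myosin genes of mouse inguinal white adipose tissue (iWAT) were followed across 6 bulk RNA-seq libraries. They were taken by name: every symbol of the count table that gives a myosin heavy chain (Myh and a number), a myosin light chain (Myl and a number, and *Mylpf*) or a myosin light chain kinase (*Mylk* and *Mylk2* to *Mylk4*). The rule for membership uses names only. It held 28 of 19509 symbols, of which 13 were heavy chains, 11 light chains and 4 kinases. These symbols filled 63 of the 37024 rows of the table. For 14 of them there was 1 row and for 14 there were several, up to 8 for *Myh8*, and the row with the highest total stood for the symbol. *Myh14*, *Myl5* and *Myl6* were not analysed here.

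The study asked how loss of the long noncoding RNA *Lexis* in fat cells alters the tissue. In *Lexis*-AdKO mice (AdKO) a floxed *Lexis* allele was crossed with Adipoq-cre, and the littermate controls (*Lexis*-AdWT, AdWT) carried the floxed allele without Cre. All were on a C57BL/6 background and had 12 weeks of Western diet, and there were 3 biological replicates per group. The adiponectin promoter drives Cre in adipocytes, so the other cells of the depot keep the gene in both groups, and the labels do not give the sex or age of these animals, while the study's methods name young adult mice for most experiments.

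A myosin motor is built of heavy chains, which bind actin and split ATP, and of essential and regulatory light chains that sit on the neck of each heavy chain. Muscle fibre types, heart chambers, smooth muscle and non-muscle cells each use their own set of chains, so that the genes serve as labels of cell type. In smooth muscle and non-muscle cells, contraction is switched on when a light chain kinase phosphorylates the regulatory light chain. In skeletal muscle the same mark only tunes a contraction that calcium and troponin have started. Adipocytes and the vessels around them use non-muscle and smooth muscle myosin, whereas inguinal fat lies against skin and body wall muscle.

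The DNA before the start site is printed for the 4 fast skeletal genes that were measured, of which 3 had the lowest fold changes of all members tested, and for the smooth muscle light chain *Myl9*. The windows are the 250 bases before the annotated start, 5′ to 3′ on the strand of the gene, from RefSeq on GRCm38.p6, where 26 of the 28 members had at least 1 window. They are chr7:127211358-127211607 on the plus strand for *Mylpf*, chr11:67199852-67200101 on the plus strand for *Myh1*, chr11:67170777-67171026 on the plus strand for *Myh2*, chr1:66945057-66945306 on the minus strand for *Myl1* and chr2:156775214-156775463 on the plus strand for *Myl9*. Capitals mark an E-box (CANNTG, the core bound by MyoD and other basic helix-loop-helix factors), a MEF2 consensus or a CArG box (the element bound by serum response factor), searched on both strands.
Mylpf: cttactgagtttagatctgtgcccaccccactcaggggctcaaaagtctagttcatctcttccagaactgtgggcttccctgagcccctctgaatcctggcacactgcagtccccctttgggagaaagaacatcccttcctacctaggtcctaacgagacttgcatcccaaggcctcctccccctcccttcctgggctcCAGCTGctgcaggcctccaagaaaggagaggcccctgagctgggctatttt
Myh1: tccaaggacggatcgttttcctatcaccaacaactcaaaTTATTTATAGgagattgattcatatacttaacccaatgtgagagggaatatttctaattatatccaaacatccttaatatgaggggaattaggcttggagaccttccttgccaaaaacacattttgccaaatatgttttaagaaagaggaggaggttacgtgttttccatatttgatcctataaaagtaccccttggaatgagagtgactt
Myh2: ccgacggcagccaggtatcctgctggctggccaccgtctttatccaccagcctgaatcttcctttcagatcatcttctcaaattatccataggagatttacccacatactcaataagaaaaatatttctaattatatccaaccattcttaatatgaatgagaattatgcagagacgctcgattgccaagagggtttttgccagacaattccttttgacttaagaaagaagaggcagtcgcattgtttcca
Myl1: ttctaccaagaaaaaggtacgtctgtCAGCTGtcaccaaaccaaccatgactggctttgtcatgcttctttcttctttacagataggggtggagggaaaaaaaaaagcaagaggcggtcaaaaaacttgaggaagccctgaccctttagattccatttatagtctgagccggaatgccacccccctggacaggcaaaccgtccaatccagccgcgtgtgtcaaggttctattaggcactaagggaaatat
Myl9: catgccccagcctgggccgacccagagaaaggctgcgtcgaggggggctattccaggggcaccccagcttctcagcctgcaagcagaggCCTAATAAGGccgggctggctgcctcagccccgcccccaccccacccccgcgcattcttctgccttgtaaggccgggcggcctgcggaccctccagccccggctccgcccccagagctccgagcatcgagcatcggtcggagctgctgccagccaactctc
*Mylpf* and *Myl1* each held 1 E-box, whose first base lay at position -51 and -224 from the start. *Myh1* held 1 MEF2 consensus at position -211 and *Myl9* held 1 CArG box at position -161. None of these letters was present in the *Myh2* window. An E-box was found in 66.2% of all 32851 windows of this length and in 19 of the 26 members with a window. A MEF2 consensus was found in 2.92% of all windows and in 4 members (*Myh1*, *Myh4*, *Myh8* and *Mylk4*), and a CArG box in 1.47% and in 4 members (*Myh4*, *Myl3*, *Myl7* and *Myl9*). Members may have several windows, and a match describes these letters only.

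Total counts per library ran from 14470542 to 17882713, and 3 counts, the limit set by a count of 0, came to 0.179 to 0.206 CPM, the count scaled to a common library size by edgeR's TMM method. This limit covers counting error only. The library labelled AdWT replicate 2 stood apart in genes of skeletal muscle, so values are given with and without it. *4930412L05Rik*, the symbol under which *Lexis* is listed, had 8, 9 and 8 counts in AdWT replicates 1 to 3 and 21, 11 and 13 in AdKO replicates 1 to 3. That goes against the labels (two-sided exact permutation *p* = 0.1, the smallest that 3 against 3 allows), although the count does not separate the exons of the gene, so AdWT and AdKO stand here for the libraries that carry those labels, and each direction rests on the labels. Of 7 white adipocyte markers, 5 had a row, and their summed level was 57040 to 63834 CPM in AdWT and 51974 to 53778 CPM in AdKO. *Fabp4* was the highest of them in every library.

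Of the 28 symbols, 8 were listed at 0 in all 6 libraries (*Myh4*, *Myh6*, *Myh7b*, *Myh9*, *Myh13*, *Myl7*, *Myl10* and *Mylk3*). Counted by row, 35 of the 63 member rows (55.6%) were at 0, beside 47.2% of all rows of the table. A further 4 had fewer than 10 counts in total and 16 had 10 or more, and 11 of these passed edgeR's filter on low counts and were tested. Each of the 11 reached the filter's level in all 3 libraries of both groups. *Myh9*, the non-muscle heavy chain that nearly every cell uses, was among those listed at 0, so a 0 in this table cannot be read as lack of expression. *Myl12a*, *Myl12b* and *Myl9* together held between 89.8% and 94.8% of all member counts of a library.

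**Figure D1:**
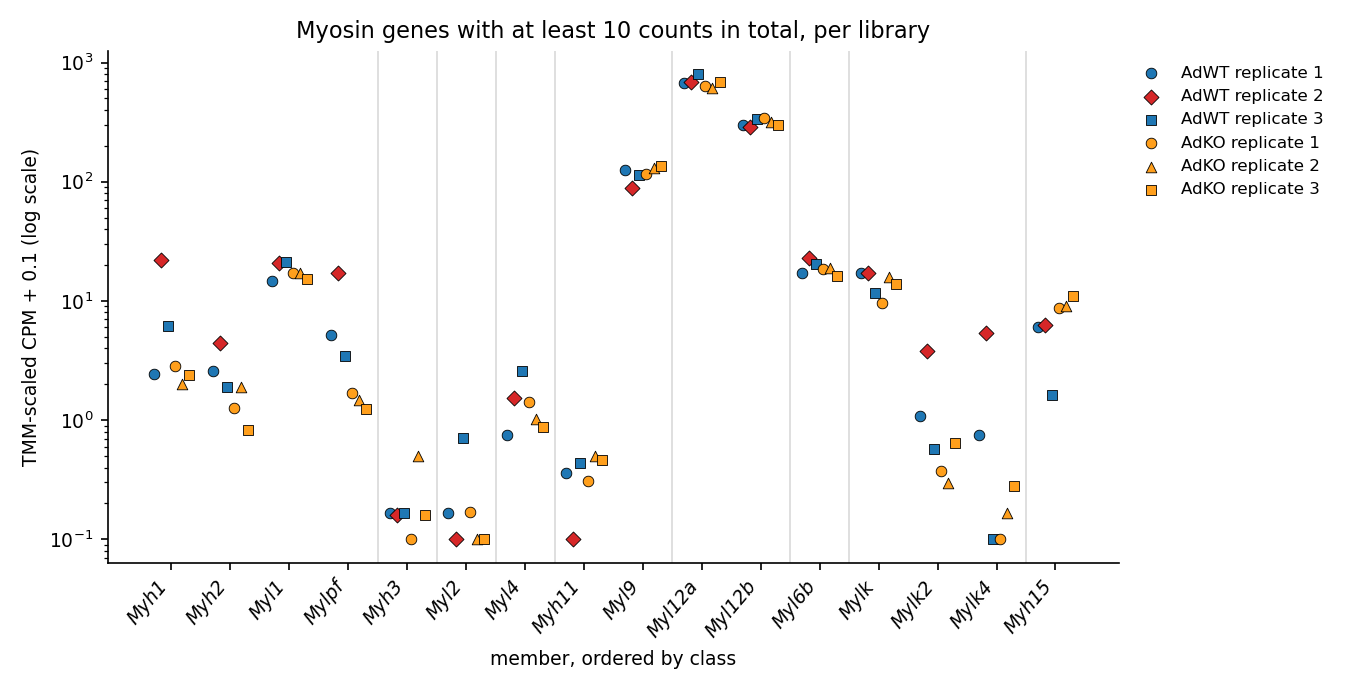
TMM-scaled CPM plus 0.1 on a log axis for the 16 myosin genes with at least 10 counts in total, with 1 point per library and grey lines between classes. *Myl12a*, *Myl12b* and *Myl9* were the highest in every library, and the red diamond (AdWT replicate 2) was the highest point for 7 of the 16 genes.

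Per kilobase of the longest annotated transcript, the order of the members was set by light chains. The mean over the 6 libraries was 353 CPM per kb for *Myl12a* (319 to 414), 250 for *Myl12b* (231 to 273) and 105 for *Myl9* (78.0 to 121). These ranges did not overlap with each other or with those of any lower member. Then came *Myl6b* at 18.5 CPM per kb (15.8 to 22.4) and *Myl1* at 16.3 (13.6 to 19.7), whose ranges overlapped. *Mylpf* followed at 6.44 CPM per kb (1.49 to 22.2), *Mylk* at 1.80 (1.20 to 2.19), *Myh15* at 1.11 (0.243 to 1.72) and *Myh1* at 1.02 (0.314 to 3.59). From *Myl6b* downwards each gene overlapped with its neighbour in the order. The remaining members with 10 counts or more lay between 0.386 CPM per kb for *Myl4* and 0.0179 for *Myh3*. Lengths of the shortest transcript kept the first 3 ranks and moved lower ones, such as *Myh1* from rank 9 to rank 7.

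By edgeR no myosin gene passed the adjusted threshold in the comparison of AdKO with AdWT, and by DESeq2 1 did. By the quasi-likelihood test of edgeR, adjusted over 9872 rows by the Benjamini-Hochberg method, 0 of 11 tested members had an adjusted *p* under 0.05, as was the case for 0% of all rows, whose smallest adjusted *p* was 0.206. At an unadjusted *p* under 0.05, 3 members were lower in AdKO (*Mylpf*, *Myh1* and *Myh2*), against 2.98% of all rows, and 1 was higher (*Myh15*), against 2.76%. The 3 AdKO libraries were all below the 3 AdWT libraries for 2 of the 11 members, against 5.72% of rows, and all above for 1, against 6.16%. The median log2 fold change was -0.20 over the 11 members and 0.01 over all rows, with 8 members lower and 3 higher. AdWT replicate 2 was the highest library for 5 of the 11 tested members, against 16.7% of rows. DESeq2, the tool the authors used, called 27 of 7025 rows at an adjusted *p* under 0.05 (0.384%), of which 1 was a member, *Mylpf*.

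The clearest difference lay in the fast skeletal chains. Of the 4 genes that could be measured, 3 were lower in AdKO at an unadjusted *p* under 0.05, against 2.98% of all rows. *Mylpf* encodes the regulatory light chain of fast fibres and lies at chr7:134355122-134357812 of mm9, on the plus strand. Its counts were 78, 285 and 50 in AdWT replicates 1 to 3 and 23, 21 and 19 in AdKO, or 5.10, 17.0 and 3.35 CPM against 1.58, 1.38 and 1.14 CPM. Every AdWT library was above every AdKO library, and the lowest AdWT library was AdWT replicate 3, not AdWT replicate 2. The log2 fold change was -2.64 (standard error 0.622, unadjusted *p* = 0.00338, edgeR adjusted *p* = 0.817), and the two-sided exact permutation *p* was 0.1. In DESeq2 its adjusted *p* was 0.00203. Without AdWT replicate 2 the log2 fold change was -1.63 (standard error 0.289, unadjusted *p* = 0.00125). In bulk tissue, fewer cells of a type and less RNA per cell cannot be told apart.

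*Myh1* and *Myh2* encode the fast heavy chains of type IIx and type IIa fibres and lie side by side on chromosome 11. *Myh1* had 36, 365 and 91 counts in AdWT and 40, 29 and 38 in AdKO. AdWT replicate 2 held 72.1% of the summed AdWT level, and AdWT replicate 1, at 2.36 CPM, was within the AdKO range of 1.91 to 2.75 CPM. The log2 fold change was -2.13 (standard error 0.735, unadjusted *p* = 0.0219, edgeR adjusted *p* = 0.851) and -0.87 without AdWT replicate 2 (unadjusted *p* = 0.0845). *Myh2* had 38, 73 and 27 counts in AdWT and 17, 27 and 12 in AdKO. Scaled to CPM its groups were just apart, at 2.49, 4.36 and 1.81 CPM against 1.17, 1.78 and 0.721 CPM. The log2 fold change was -1.25 (standard error 0.431, unadjusted *p* = 0.0219, edgeR adjusted *p* = 0.851) and -0.82 without AdWT replicate 2 (unadjusted *p* = 0.0967). The transcripts of both genes are near copies in part: 26.7% of the 50-base windows of *Myh1* and 26.9% of those of *Myh2* also occur in another gene, mostly in each other, and antisense genes overlap both. The split of reads between them is therefore uncertain.

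*Myl1*, the essential light chain of fast fibres, had the highest mean level per kilobase of the fast chains and overlapped between the groups. It had 225, 343 and 318 counts in AdWT and 246, 261 and 254 in AdKO, which is 14.7, 20.5 and 21.3 CPM against 16.9, 17.2 and 15.3 CPM. The lowest library was AdWT replicate 1, and AdKO over AdWT gave a log2 fold change of -0.20 (unadjusted *p* = 0.258, standard error 0.159). It was -0.34 without AdWT replicate 1 (unadjusted *p* = 0.0251) and -0.11 without AdWT replicate 3. *Myl1* pairs with *Mylpf* on the same heavy chain in fast fibres. Per kilobase, the ratio of *Myl1* to *Mylpf* was 2.04, 0.852 and 4.50 in AdWT and 7.57, 8.80 and 9.46 in AdKO, a pair chosen after the values were seen. With the lengths of the shortest transcripts it was 0.839, 0.350 and 1.85 in AdWT and 3.11, 3.62 and 3.89 in AdKO. The ratio was lowest in AdWT replicate 2 and higher in every AdKO library than in every AdWT library. The choice of length scales all libraries alike, so it could not change this order. The other fast heavy chains, *Myh4* (type IIb fibres) and *Myh13* (eye muscles), were listed at 0 in every library, and 18.9% of the *Myh4* windows occur in other genes, mostly *Myh2*.

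**Figure D2:**
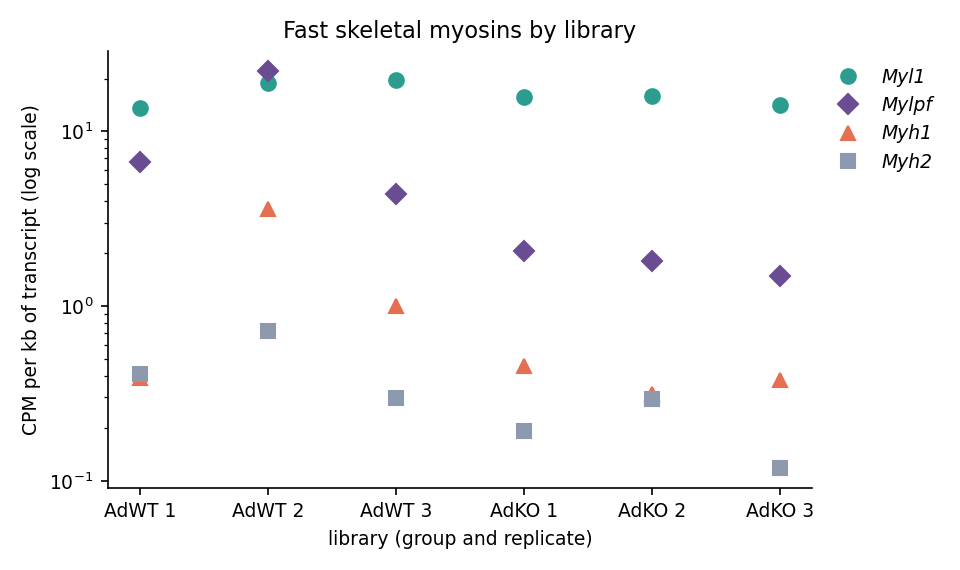
CPM per kb of the longest transcript (log axis) of the 4 measured fast skeletal myosin genes in each library. *Myl1* stayed between 13.6 and 19.7 CPM per kb, whereas *Mylpf* ran from 1.49 in AdKO replicate 3 to 22.2 in AdWT replicate 2.

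Summed over the fast class, the level was 24.7, 63.7 and 32.5 CPM in AdWT (40.3 ± 20.7, mean ± SD, n = 3) and 22.4, 22.3 and 19.4 CPM in AdKO (21.4 ± 1.69, n = 3). The groups did not overlap, and the log2 ratio of the means was -0.92, or -0.42 without AdWT replicate 2. *Myl1* made up most of this sum outside AdWT replicate 2. With *Myl1* left out, the class was at 9.95, 43.2 and 11.2 CPM in AdWT and 5.50, 5.07 and 4.15 CPM in AdKO. The median log2 fold change of the 4 tested members was -1.69, and -0.84 without AdWT replicate 2.

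Apart from *Myl4*, the members classed under developing, slow and heart muscle were close to the limit of detection or listed at 0. *Myl6b*, which slow muscle also uses, was classed with smooth muscle and non-muscle chains and is given there. The embryonic heavy chain *Myh3* had between 0 and 6 counts per library, and the perinatal *Myh8* between 0 and 2. *Myh7*, the heavy chain of slow fibres and of the ventricle, had 3 counts in AdWT replicate 3, 3 in AdKO replicate 3 and 0 in the others. Its regulatory light chain *Myl2* had 1, 0 and 9 counts in AdWT and 1, 0 and 0 in AdKO, and the essential light chain *Myl3* had at most 2. Neither light chain was high in AdWT replicate 2, unlike *Mylpf*, *Myh1* and *Myh2*. Summed, the slow and ventricular class was between 0.0598 and 0.937 CPM in AdWT and between 0 and 0.180 CPM in AdKO, at or below the limit of a 0 count in 5 of 6 libraries. Both cardiac heavy chains share windows (22.8% of those of *Myh6* and 22.2% of those of *Myh7*), and *Myh6* and the atrial light chain *Myl7* were listed at 0.

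*Myl4*, the essential light chain of atrial and embryonic muscle, was the 1 member of these classes that could be tested. Its counts were 10, 24 and 37 in AdWT and 19, 14 and 13 in AdKO. Both the lowest and the highest value belonged to AdWT, with -0.60 as log2 fold change (standard error 0.480, unadjusted *p* = 0.248). Single AdWT libraries set this value, since it was -0.96 without AdWT replicate 1 (unadjusted *p* = 0.0386) and -0.08 without AdWT replicate 3. Of 6 cardiac muscle markers, 3 had a row and 2 were tested. Their sum was 26.3 to 31.0 CPM in AdWT and 22.1 to 27.0 CPM in AdKO, nearly all of it from the calcium channel *Ryr2*, and *Pln* had at most 3 counts.

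Smooth muscle myosin was lowest, not highest, in AdWT replicate 2. *Myl9*, the regulatory light chain of smooth muscle, had 1910, 1471 and 1684 counts in AdWT and 1672, 1985 and 2265 in AdKO. This is 125, 87.9 and 113 CPM in AdWT (109 ± 18.9, n = 3, mean ± SD) and 115, 131 and 136 CPM in AdKO (127 ± 11.0, n = 3). AdWT replicate 2 was the lowest library and the groups overlapped. The log2 fold change was 0.23 (standard error 0.134, unadjusted *p* = 0.128). It was 0.09 without AdWT replicate 2 and 0.34 without AdWT replicate 1 (unadjusted *p* = 0.0338). Its heavy chain *Myh11* had 4, 0 and 5 counts in AdWT and 3, 6 and 6 in AdKO and was not tested. None of the other *Myh11* rows had more than 3 counts in a library. *Myl9* shares no 50-base window with another gene.

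The summed level of smooth muscle and pericyte markers was also lowest in AdWT replicate 2. Of 9 such genes, 6 had a row and 5 were tested. Of these, 1 (*Smtn*) reached the filter's level in AdWT alone, so no count by direction is given. The summed level was 189.9, 116 and 148 CPM in AdWT and 183, 185 and 224 CPM in AdKO. *Tagln*, an actin-binding protein of smooth muscle, made up most of it, with 1534 to 2410 counts in AdWT and 2213 to 3134 in AdKO. *Smtn* (smoothelin) had 26, 14 and 14 counts in AdWT and 4, 3 and 7 in AdKO. It was the 1 gene of the list at an unadjusted *p* under 0.05, beside 2.98% of all rows (lower in AdKO), in a direction that the filter set. The part of these cells in the level of *Myl9* was not tested.

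The non-muscle chains were the most abundant, and their groups overlapped. *Myl12a* and *Myl12b* are regulatory light chains of non-muscle myosin and neighbours on chromosome 17 (chr17:71342996-71352218 and chr17:71323260-71340127 of mm9, minus strand). *Myl12a* had 10194, 11501 and 11973 counts in AdWT and 9207, 9369 and 11527 in AdKO, or -0.15 on the log2 scale (standard error 0.0949, unadjusted *p* = 0.156). *Myl12b* had 4609, 4834 and 5007 counts in AdWT and 4976, 4798 and 4944 in AdKO, or 0.05 on the log2 scale (standard error 0.0860, unadjusted *p* = 0.613). In both the groups overlapped, and AdWT replicate 2 was not the highest library. The class sum was 969, 977 and 1136 CPM in AdWT and 975, 933 and 990 CPM in AdKO. The genes share 10.2% (*Myl12a*) and 15.9% (*Myl12b*) of their windows, so a small part of their reads cannot be assigned. The non-muscle heavy chain *Myh10* had 1 count in AdWT and 1 in AdKO in the row used. Other *Myh10* rows tied with it at 2 counts in total, all in AdWT replicate 2. *Myl6b*, an essential light chain of slow muscle and non-muscle cells, had 263, 385 and 302 counts in AdWT and 269, 283 and 269 in AdKO. AdWT replicate 2 was its highest library, the groups overlapped, and AdKO was at -0.18 on the log2 scale relative to AdWT (standard error 0.137).

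**Figure D3:**
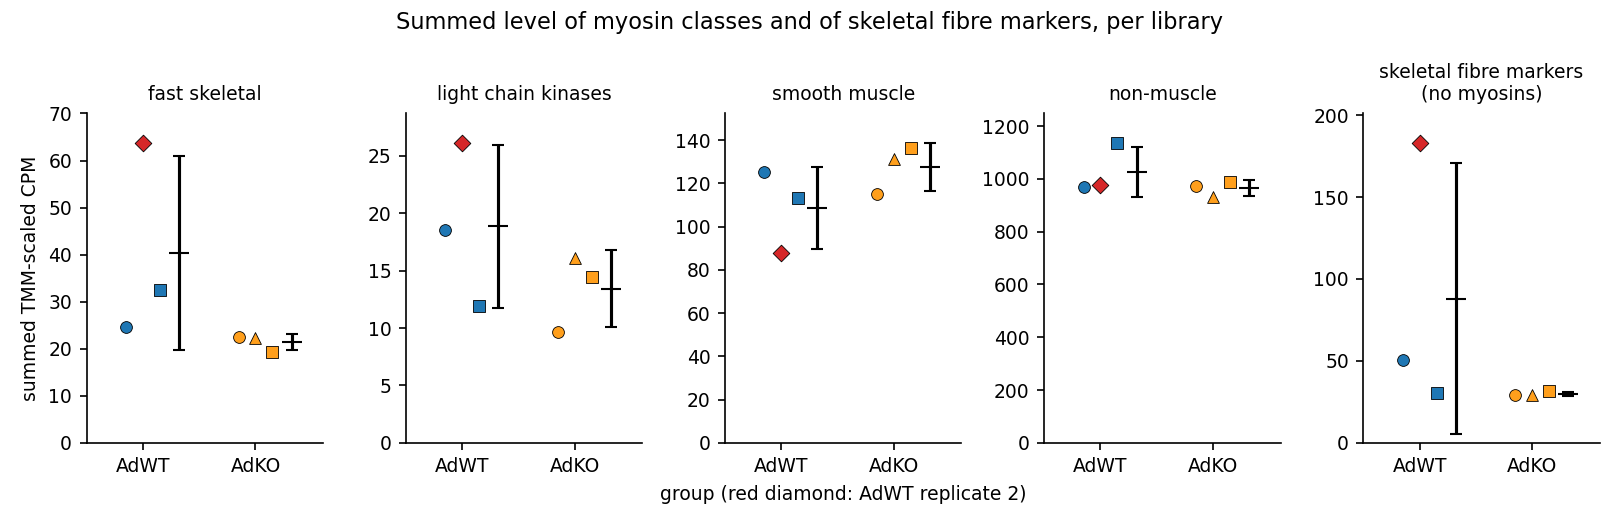
Summed TMM-scaled CPM of myosin classes and of the skeletal fibre marker list in each library, with the group mean and SD (n = 3) as black bars. AdWT replicate 2 (red diamond) was the highest library for fast skeletal chains, kinases and fibre markers, the lowest for smooth muscle, and within the others for non-muscle chains.

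All 3 light chain kinases above 0 overlapped between the groups and were highest in AdWT replicate 2 in the rows that stood for them. For *Mylk* this held by a small margin, at 17.2 CPM against 16.9 CPM in AdWT replicate 1, and in that row only. *Mylk*, the kinase of smooth muscle and non-muscle cells, had 258, 287 and 171 counts in AdWT and 137, 241 and 229 in AdKO. The groups overlapped, at -0.22 on the log2 scale (standard error 0.235, unadjusted *p* = 0.380). A further 3 *Mylk* rows passed the filter, with log2 fold changes of -0.31, -0.04 and -0.88 and no unadjusted *p* under 0.05. All 3 were highest in AdWT replicate 1, with 109, 26 and 21 counts there and 77, 19 and 12 in AdWT replicate 2. *Mylk2*, the skeletal muscle kinase, had 15, 62 and 7 counts in AdWT and 4, 3 and 9 in AdKO, and AdWT replicate 2 held 71.9% of the AdWT level. *Mylk4* had 10, 88 and 0 counts in AdWT and 0, 1 and 3 in AdKO, with 88.9% of the AdWT level in AdWT replicate 2. Neither passed the filter on low counts. With rows of at least 1 count in any library tested, their log2 fold changes were -2.32 (unadjusted *p* = 0.00551) and -4.42 (unadjusted *p* = 0.00549). For both genes 1 or more AdWT libraries lay within the AdKO range.

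*Myh15*, a heavy chain of the sarcomeric branch of the family described in eye muscles, was the 1 member higher in AdKO at the unadjusted threshold. It lies at chr16:49057599-49199217 of mm9 on the plus strand and shares no 50-base window with another gene. Its counts were 90, 104 and 23 in AdWT and 126, 136 and 181 in AdKO, or 5.89, 6.22 and 1.54 CPM against 8.66, 8.96 and 10.9 CPM. All 3 AdKO libraries were above all 3 AdWT libraries, and AdWT replicate 3 was the lowest. The log2 fold change was 1.06 (standard error 0.444, unadjusted *p* = 0.0469, edgeR adjusted *p* = 0.851). It was 1.35 without AdWT replicate 2 and 0.64 without AdWT replicate 3. Leaving out AdKO replicate 1, 2 or 3 lost the unadjusted threshold, with edgeR's unadjusted *p* at 0.0790, 0.0793 and 0.110. *Myh15* thus differed from the fast heavy chains both in direction and in the library that stood out.

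**Figure D4:**
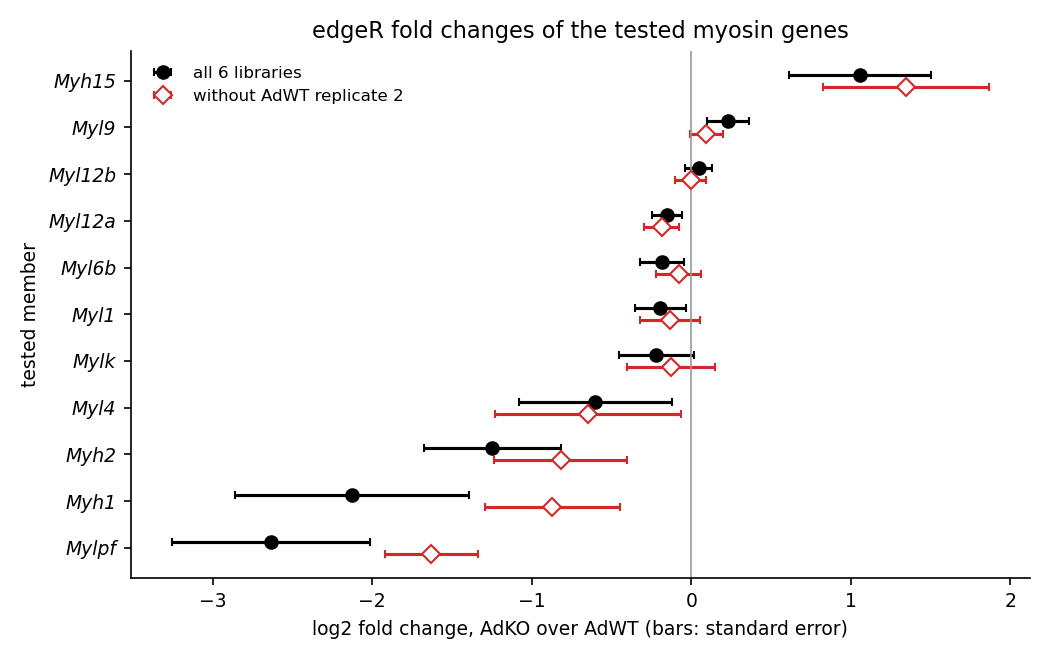
Log2 fold change of AdKO over AdWT with its standard error for the 11 tested members, with all 6 libraries (black) and without AdWT replicate 2 (red). *Mylpf*, *Myh1* and *Myh2* lay at -2.64, -2.13 and -1.25 and moved to -1.63, -0.87 and -0.82, while *Myh15* moved from 1.06 to 1.35.

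The proteins that hold or regulate myosin were counted from lists of their known roles. In the thick filament and its assembly, 9 of 12 genes had a row and 1 was tested, the M-band protein *Myom1*, with 14, 11 and 16 counts in AdWT and 23, 17 and 19 in AdKO. It reached the filter's level in all 3 libraries only in AdKO, so its direction is not read. *Mybpc2*, the fast myosin-binding protein C, had 61, 231 and 8 counts in AdWT and 2, 4 and 3 in AdKO, and *Myom2* had 14, 65 and 2 against 0, 2 and 1. Both had their highest count in AdWT replicate 2, and neither passed the filter. In the skeletal thin filament, 7 of 14 genes had a row and 5 were tested. Of these, 2 reached the filter's level in all 3 libraries only in AdWT and 1 only in AdKO, so no count by direction is given. The 1 at an unadjusted *p* under 0.05, beside 2.98% of all rows (lower in AdKO), was *Tnnc2*, fast troponin C. *Tnnc2* had 73, 340 and 43 counts in AdWT and 17, 7 and 14 in AdKO. It reached the filter's level in all 3 libraries only in AdWT. Slow troponin C, *Tnnc1*, had 21, 7 and 13 counts against 13, 17 and 15, with AdWT replicate 2 lowest. Of 15 genes that control phosphorylation of the light chain (among them calmodulins and phosphatase subunits), 13 had a row and 10 were tested. Of the 10, 0 had an unadjusted *p* under 0.05 with edgeR, beside 2.98% of all rows lower and 2.76% higher. The kinase *Dapk3* reached the filter's level in all 3 libraries only in AdKO, so no count by direction is given. Their log2 fold changes ran from -0.12 for *Cdc42bpb* to 0.22 for the phosphatase subunit *Ppp1cb*.

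Markers of skeletal muscle fibres other than myosins showed the same library on top. Of 17 such genes 12 had a row, *Tnnt3* and *Cacna1s* were listed at 0, and 7 were tested. Of these, 4 (*Ckm*, *Atp2a1*, *Tnnc2* and *Tcap*) reached the filter's level in all 3 libraries only in AdWT, so no count by direction is given. For *Ckm* and *Tcap* no AdKO library reached it, so the filter set their direction. The other 3 tested genes, *Neb*, *Ryr1* and *Casq1*, had log2 fold changes of -1.12, -0.77 and 0.49 and no unadjusted *p* under 0.05. The summed level of the list was 50.3, 183 and 30.7 CPM in AdWT and 28.9, 29.4 and 31.4 CPM in AdKO, so that AdWT replicate 3 lay within the AdKO range. That overlap rested on *Casq1*, the 1 tested gene of the list with a positive log2 fold change, left out after the values were seen. The sum without it was 37.4, 165 and 21.5 CPM in AdWT and 11.0, 7.58 and 14.0 CPM in AdKO. The groups were then apart, which follows from that choice and is no separate test. Muscle creatine kinase, *Ckm*, had 87, 576 and 29 counts in AdWT and 0 in all 3 AdKO libraries, and the fast calcium pump *Atp2a1* had 208, 1214 and 38 against 8, 10 and 14. Both are genes of mature fibres, and *Ckm* was below the limit of a 0 count throughout AdKO. Other fibre genes of the list were near that limit in both groups. *Pvalb* had 4, 0 and 1 counts in AdWT and 0, 1 and 4 in AdKO, and *Mb* had 0, 2 and 0 against 1, 0 and 3. The calcium store protein *Casq1* overlapped between the groups, with 198, 309 and 137 counts in AdWT and 261, 332 and 289 in AdKO. AdWT replicate 2 was the highest library for 7 of the 9 genes with at least 10 counts. The part of muscle fibres in the differences of the fast myosin chains was not tested.

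Epithelial markers, which a sample of this depot could also hold, stood apart in other libraries. All 5 with a row of 6 summed to 1.44, 0.956 and 20.3 CPM in AdWT and 0.894, 1.12 and 48.0 CPM in AdKO, so that AdWT replicate 3 and AdKO replicate 3 were high. AdWT replicate 3 was also the library with the least *Myh15*, but AdKO replicate 3 had the most. Macrophage markers (2 of 4 with a row) were at 219 to 395 CPM in AdWT and 363 to 498 CPM in AdKO, and endothelial markers (2 of 4) at 789 to 1156 CPM and 771 to 1094 CPM. The 4 brown adipocyte genes summed to 77.9 to 86.8 CPM in AdWT and 99.7 to 113 CPM in AdKO. *Cox8b*, a subunit of cytochrome oxidase, had 769, 665 and 498 counts in AdWT and 811, 1100 and 982 in AdKO, at 0.60 on the log2 scale (unadjusted *p* = 0.00783, edgeR adjusted *p* = 0.847) and with groups that did not overlap in CPM. *Cidea*, a lipid droplet protein, had 417, 586 and 763 counts in AdWT and 608, 507 and 805 in AdKO and overlapped, at 0.13 on the log2 scale. *Dio2*, which activates thyroid hormone, also overlapped, with 27, 44 and 29 counts against 11, 30 and 26, at -0.56 on the log2 scale (unadjusted *p* = 0.160). *Ucp1*, the uncoupling protein of thermogenic fat, had 25, 8 and 7 counts against 21, 58 and 67. It reached the filter's level in all 3 libraries only in AdKO, so its direction is not read. Its groups overlapped, since AdWT replicate 1 was above AdKO replicate 1 in CPM.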

How the data were processed

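Total RNA of iWAT was sequenced with a stranded kit. The authors aligned reads with HISAT2 to mm9 and deposited raw counts per row, with no normalization; the counting tool and its strand setting are not given in the sources used here, and DESeq2 is named in the submitters' processing notes. A symbol with several rows was represented by the row with the highest total. Counts were tested with edgeR 4.0.16 in R 4.3.3 (filterByExpr by group, TMM, glmQLFit, glmQLFTest) over all rows, with Benjamini-Hochberg adjustment and a threshold of 0.05. The standard error is the log2 fold change over the square root of F. CPM used the TMM library sizes, and the exact permutation test ran on log2(CPM + 0.5) over all 20 splits. Lengths and coordinates came from GENCODE on NCBIM37 (mm9), with Python 3.11.15, pandas 2.3.3 and matplotlib 3.10.9. Alternatives were DESeq2 1.42.0, other scalings and filters, a block for the replicate number, the summed rows of each symbol, shortest transcript lengths, and each library left out. The test was also run on simulated data with 200 changed genes. No simulated library stood apart as AdWT replicate 2 did, so that run does not show how the test behaves with such a library. The members and lists were chosen with earlier results of these data known. Myosin genes were all accounted for, with values per library from 10 counts in total; other genes came from lists of partners and of markers of muscle, epithelium, adipocytes, macrophages and endothelium. *P* values measure the spread between these samples, whose common biological coefficient of variation was 0.196. No pair of libraries was a duplicate.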

Additional observations from a re-analysis of the deposited data

How the results depend on the processing

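No member passed the adjusted threshold under any edgeR alternative, and DESeq2 called 1 (*Mylpf*). Over all rows, 0 were called, 1 with rows of at least 1 count in any library, 27 with DESeq2, and 0 to 1 with each library left out. At an unadjusted *p* under 0.05, 566 rows became 329 without AdWT replicate 2 and 1208 without AdWT replicate 1, the range over left-out libraries. The 4 members became 1 without AdKO replicate 1, 2 without AdWT replicate 2, AdKO replicate 2 or AdKO replicate 3, and 7 without AdWT replicate 1, at 1 to 7. The median log2 fold change of the fast chains, -1.69, ran from -1.97 to -0.84 over left-out libraries, the latter without AdWT replicate 2. *Myl12b*, at 0.05 in all libraries, reversed to -0.0044 without AdWT replicate 2 and -0.0093 without AdKO replicate 1, in a range of -0.0093 to 0.10. Of 154 single-member values under alternatives, 138 kept direction and side of the unadjusted threshold, 11 became weaker, 3 stronger (*Myl1*, *Myl4* and *Myl9*, each without AdWT replicate 1) and 2 reversed, and 10 of the 11 members never reversed. *Mylpf* ran from -3.03 to -1.63 over left-out libraries. *Myh1* lost the unadjusted threshold without AdWT replicate 2 or any 1 AdKO library, *Myh2* without AdWT replicate 2, AdKO replicate 1 or AdKO replicate 3, and *Myh15* without any 1 AdKO library. Apart from fewer samples, the cause was not tested.

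No pairing by replicate number was seen: deviations of same-numbered libraries had correlations of -0.08, -0.13 and 0.33. Those of differently numbered libraries ran from -0.33 to 0.41. So few libraries cannot exclude a pairing. With the replicate number as a block, 3 members and 418 rows had an unadjusted *p* under 0.05, 0 rows were called by edgeR, and *Myh1* was at -1.63 (unadjusted *p* = 0.0592), *Myh2* at -1.23 and *Mylpf* at -2.33. With 3 libraries per group and genes at or below 3 counts in most of them, no difference was detectable for developmental, slow and ventricular chains.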

Other observations

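The unconventional myosins (symbols of Myo, a number and an optional letter), which carry cargo and link membranes to actin and build no filaments, were counted in the same way. Of 23 symbols, 20 were above 0 and 12 were tested, with 0 at an adjusted *p* under 0.05 and 1 at an unadjusted *p* under 0.05 with edgeR, a lower one (*Myo1d*), beside 2.98% of all rows. Of the 12, 2 (*Myo1f* and *Myo9b*) reached the filter's level in all 3 libraries only in AdKO, so no count by direction is given. Their summed level was 256, 276 and 285 CPM in AdWT and 242, 223 and 279.6 CPM in AdKO. *Myo1d*, a class I myosin, was the highest, with 114, 108 and 118 CPM in AdWT and 98.1, 100.6 and 94.5 CPM in AdKO. Its groups did not overlap and its log2 fold change was -0.21 (standard error 0.0671, unadjusted *p* = 0.0150, edgeR adjusted *p* = 0.851). *Myo18b*, which is known from striated muscle, had 5, 39 and 1 counts in AdWT and 2, 1 and 0 in AdKO and was highest in AdWT replicate 2. *Myo9a* varied within both groups, with 136, 644 and 569 counts in AdWT and 301, 90 and 448 in AdKO.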
